A study of Mus musculus with 12 samples.

Results

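The muscle miRNAs measured here were miR-1a, miR-133a, miR-133b and miR-206 of the mouse. Every miRNA name on the array that starts mmu-miR-1a-, mmu-miR-133a-, mmu-miR-133b- or mmu-miR-206- was taken, whatever its signal. This gave 5 of 696 miRNA names: mmu-miR-1a-3p, mmu-miR-133a-3p, mmu-miR-133a-5p, mmu-miR-133b-3p and mmu-miR-206-3p. All 5 were detected on at least 1 array and were tested, and 4 of them were detected on all 12 arrays.

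The samples came from C57BL/6J mice aged 34 postnatal days, in which a frosted diffuser had covered the right eye for 10 days (visual form deprivation) while the left eye of the same animals was left untreated. The 4 groups were control retina (whole retina of left eyes without visual form deprivation), myopic retina (retina of deprived right eyes), control sclera and myopic sclera, with the sclera taken from eyes of the same kinds. Each group had 3 pools of 3 eyes, and each pool was hybridized to 1 array. The control is the fellow eye of a treated animal, no eye of an untreated mouse was analysed here, and the methods say that tissue around the eye was removed before dissection.

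miR-1 and miR-133 are made in skeletal and heart muscle, where they are transcribed together and promote, respectively, differentiation and proliferation of muscle cells. miR-206 has the seed of miR-1 and is found in skeletal muscle, and it is encoded beside miR-133b. In the eye, the extraocular muscles attach to the outer face of the sclera, whereas the retina holds no striated muscle. A seed (bases 2 to 8) is the part of a miRNA that pairs with its targets.

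Sequences were taken from RefSeq (GRCm38.p6), in which 2 of the 5 members were matched, the products of the cluster on chromosome 1. They are shown to set apart the seeds of the families of miR-1 and miR-133, which are in capitals.
mmu-miR-206-3p: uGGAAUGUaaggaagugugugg
mmu-miR-133b-3p: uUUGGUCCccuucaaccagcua
miR-206-3p thus stands for the seed family of miR-1 and miR-133b-3p for that of miR-133. RefSeq places Mir206 and Mir133b within the long noncoding RNA gene Lincmd1. The array annotation (mm9) puts the longer miR-206-3p probe at chr1:20669142-20669157 and the longer miR-133b-3p probe at chr1:20672918-20672936, with 3760 bases between them. The longer probes of miR-1a-3p (chr2:180123802-180123822) and miR-133a-3p (chr2:180133146-180133163) were 9323 bases apart on chromosome 2. The probes of miR-1a and miR-133a also match a second copy elsewhere in the genome, so the array did not tell their copies apart.

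The array has 2 probes of unequal length for each member, with 10 spots each. The probes of miR-206-3p are shown because their ratio differed between retina and sclera arrays, with the stretch CACACAC in capitals.
shorter miR-206-3p probe: cCACACACttcctta
longer miR-206-3p probe: cCACACACttccttac
The shorter probe pairs with bases 8 to 22 of miR-206-3p and the longer probe with bases 7 to 22. Neither covers more than the last bases of the seed.

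The measurement is the total gene signal, a background-subtracted fluorescence intensity summed over the probes of a miRNA, and 0.1 marks a miRNA that was not detected. For the tests it was quantile normalized over the 12 arrays and transformed to log2. A difference was called where the adjusted p-value of limma was under 0.05 and the fold change was at least 2. The arrays detected between 274 and 401 of the miRNAs. Markers set the tissues apart: the summed total gene signal of 5 miRNAs of retinal neurons was 197559 to 297315 on the retina arrays and 735.4 to 13205 on the sclera arrays. The 4 connective tissue miRNAs summed to 102.7 to 361.5 in the retina and 4945 to 14610 in the sclera. All 4 were detected on every sclera array, and miR-214-3p was detected on none of the retina arrays.

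A pair of arrays stood apart from their groups for the members. On control retina 1 the 3 members miR-1a-3p, miR-133a-3p and miR-133b-3p were lower, and miR-206-3p was higher, than on the other control retina arrays. On control sclera 3, which had the fewest detected miRNAs, miR-1a-3p and miR-133a-5p were low relative to miR-133a-3p. Results that rest on these arrays are given with and without them.

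All 5 members had higher signal in the sclera than in the retina, in control eyes and in myopic eyes, under quantile normalization. The order of the groups by mean log2 signal was the same for miR-1a-3p, miR-133a-3p and miR-133b-3p: myopic sclera, control sclera, control retina and myopic retina. For miR-1a-3p, miR-133a-3p and miR-133b-3p, neighbours within a tissue in that order did not differ beyond the spread between the pools, whereas the step from sclera to retina did. For miR-206-3p the retina groups changed places and did not overlap under quantile normalization.

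miR-133b-3p, which shares the seed and most of the sequence of miR-133a-3p, had a total gene signal of 1180, 1999 and 653.9 in the control sclera pools and 1864, 1343 and 734.6 in the myopic sclera pools. In the retina it was 73.5, 121.5 and 201.1 in the control pools and 103.6, 128.4 and 87.9 in the myopic pools. Every sclera array was above the highest retina array. Whether the array tells miR-133b-3p from miR-133a-3p was not tested, which limits reading them as separate members. The log2 difference between control sclera and control retina was 4.50 (SE 0.43), a 22.6-fold higher signal in the sclera (adjusted p = 1.1e-05, limma). Between myopic sclera and myopic retina it was 5.23 (SE 0.43), or 37.5-fold (adjusted p = 3.2e-06, limma).

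The total gene signal of miR-133a-3p was 573.7, 951.2 and 331.4 in control sclera pools, with 903.2, 636.0 and 343.6 in the myopic ones. In the control retina it was 32.5, 61.6 and 101.6, and in the myopic retina 52.5, 61.6 and 44.2. Again no retina array reached the lowest sclera array. The log2 difference between the tissues was 4.34 (SE 0.51, 20.3-fold) in control eyes and 5.17 (SE 0.51, 36.0-fold) in myopic eyes, with adjusted p of 5.0e-05 and 1.2e-05 in limma.

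For miR-1a-3p, a miRNA of both skeletal and heart muscle, the control sclera pools gave total gene signals of 1017, 1692 and 281.8, and the myopic sclera pools gave 1641, 1173 and 586.0. It was 42.9, 103.2 and 181.4 in the control retina and 70.9, 90.2 and 60.4 in the myopic retina. The tissues did not overlap, but control sclera 3 came closest to the retina. The log2 difference was 4.21 (SE 0.59, 18.5-fold, adjusted p = 1.7e-04, limma) in control eyes and 5.53 (SE 0.59, 46.3-fold, adjusted p = 2.2e-05, limma) in myopic eyes.

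miR-133a-5p is the opposite arm of the miR-133a hairpin. It was not detected on any of the 6 retina arrays, where its brightest probe reached 2.34, below the lowest detected signal of each array. In the sclera it was detected on all 6 arrays, at 25.2, 41.4 and 9.42 in the control pools and 39.4, 29.5 and 16.9 in the myopic pools. Its signal, scaled by the 75th percentile of each array, was at least 11.9-fold higher in control sclera than in control retina. In myopic eyes it was at least 16.7-fold higher in sclera. The retina values are limits set by the lowest detected signal. On the same scale, limma with the undetected retina arrays at −1 gave adjusted p = 3.831e-09 and 2.217e-09, and it does not test these limits.

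miR-206-3p differed from the other members. Its total gene signal in the sclera was 80.9, 157.8 and 46.8 in the control pools and 113.5, 94.2 and 61.2 in the myopic pools. In the retina it was 102.2, 28.6 and 14.4 in the control pools and 128.2, 254.0 and 94.5 in the myopic pools. Before normalization the tissues therefore overlapped, and the brightest array was a myopic retina. After quantile normalization the log2 difference between sclera and retina was 2.47 (SE 0.39, 5.53-fold, adjusted p = 3.8e-04, limma) in control eyes and 1.33 (SE 0.39, 2.51-fold, adjusted p = 0.013) in myopic eyes. The higher level in sclera depended on the scaling: in myopic eyes the difference was 0.45 with 75th percentile scaling (adjusted p = 0.52, limma), −0.40 with quantile normalization within each tissue, −0.37 with normexp background correction and −0.74 without normalization. In control eyes it stayed above 0 but was not called within each tissue (0.67), with normexp (0.21) or without normalization (1.28). With 75th percentile scaling the median difference of the miRNAs on all 12 arrays moved from 0.24 to −0.13 in control eyes and from 0.32 to −0.39 in myopic eyes.

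Of all 443 miRNAs tested, 23% were called higher in control sclera than in control retina, and 26.4% higher in myopic sclera than in myopic retina. The 4 members detected on all 12 arrays were called higher in both comparisons. miR-133a-5p was called as well, but it was tested only because sclera arrays detected it. Its retina values were all set to −1, so its call is not set against these shares. The sclera and retina arrays of the 4 members detected on all 12 arrays were apart under quantile normalization. Of all miRNAs tested, 26% had all sclera arrays above the retina arrays in control eyes, and 35% in myopic eyes. The 4 members detected on all arrays had log2 differences of 2.47 to 4.50 in control eyes and 1.33 to 5.53 in myopic eyes. The medians were 0.24 and 0.32 over the miRNAs detected on all 12 arrays, and −0.30 and −0.36 over all miRNAs tested. The control and myopic comparisons use different arrays. In bulk tissue, more cells of a type and more RNA per cell cannot be told apart. Without control retina 1 the difference in control eyes was 4.04 for miR-133b-3p, 3.69 for miR-133a-3p, 3.53 for miR-1a-3p, 6.73 for miR-133a-5p and 2.98 for miR-206-3p, all called (adjusted p = 7.5e-06, 5.4e-06, 9.5e-05, 2.7e-08 and 2.9e-05, limma). Without control sclera 3 it was 4.44 for miR-1a-3p. The calls of miR-1a-3p, miR-133a-3p and miR-133b-3p were kept in all of 27 alternatives in both comparisons, but with normexp background correction the differences shrank to 1.34, 1.48 and 2.45 in control eyes and 2.40, 1.63 and 2.18 in myopic eyes. With normexp miR-133a-5p was called in neither comparison, at 0.21 and 0.28.

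**Figure D1:**
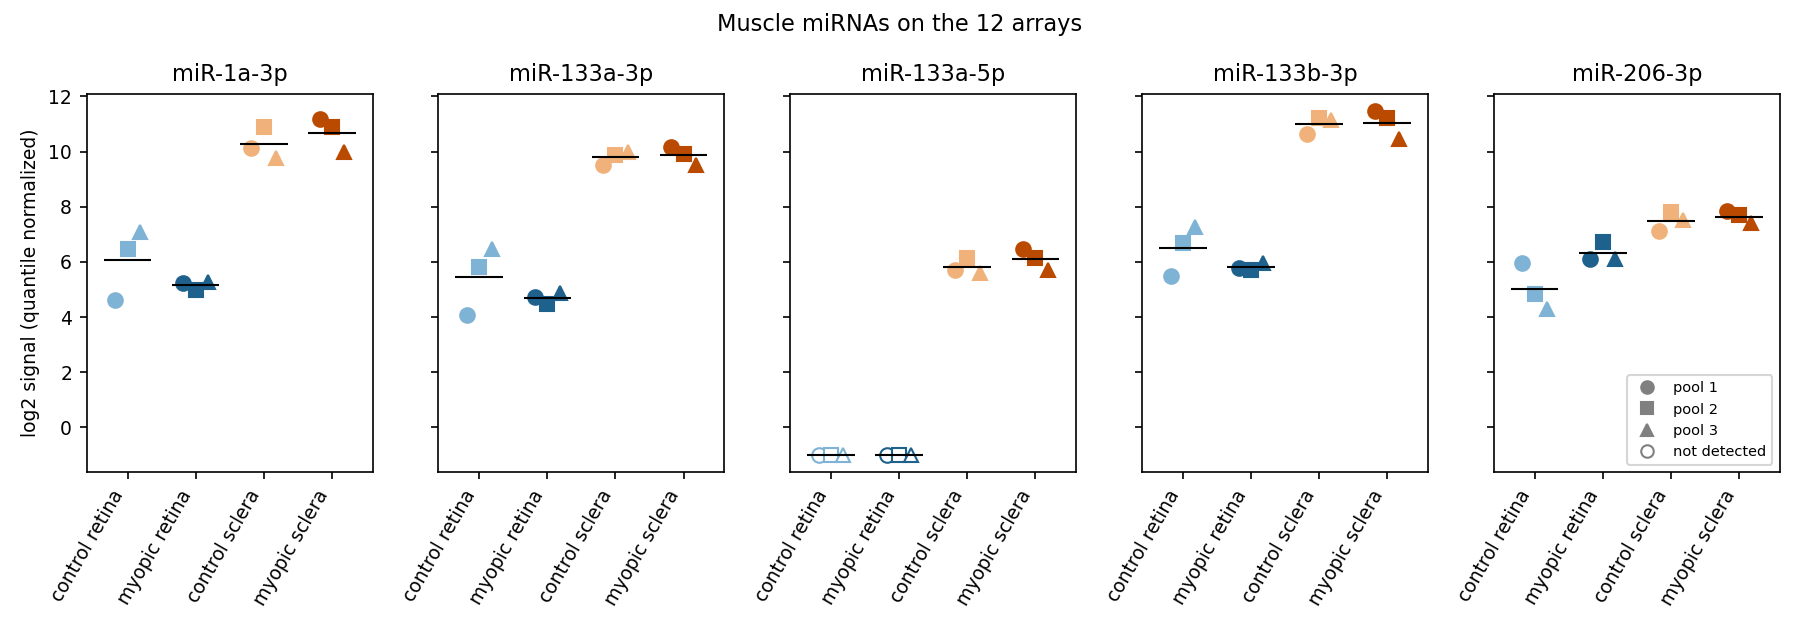
Quantile-normalized log2 signal of the 5 members (panels) on the 12 arrays by group (x axis), with a symbol for each pool, a bar at the group mean and open symbols at −1 for arrays without detection. The sclera arrays lie above the retina arrays in every panel, the gap is smallest for miR-206-3p, and control retina 1 lies below the other control retinas for miR-1a-3p, miR-133a-3p and miR-133b-3p and above them for miR-206-3p.

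Other miRNAs of striated muscle did not share this pattern. The list held miR-208a, miR-208b, miR-499, miR-486 and miR-378, and 5 names on the array matched it. miR-208a-3p and miR-208b-3p, which lie in introns of the cardiac myosin heavy chain genes, were not detected on any array. miR-499-5p, from an intron of the myosin gene Myh7b, went the other way: its total gene signal was 59.3, 73.6 and 74.6 in the control retina and 63.4, 92.0 and 61.7 in the myopic retina, and it was not detected on any sclera array. Scaled by the 75th percentile of each array, its signal was at least 11.02-fold higher in control retina than in control sclera. In myopic eyes it was at least 11.2-fold higher in retina. The sclera values are limits set by the lowest detected signal. The quantile-normalized fit, with the undetected sclera arrays at −1, called both differences (adjusted p = 4.0e-09 and 8.4e-09, limma) and does not test these limits. The arms of miR-378, encoded in the metabolic coactivator gene Ppargc1b, were detected on all 12 arrays and were not called in either tissue comparison, with log2 differences (sclera minus retina) of 0.14 and 0.10 in control eyes and 0.33 and 0.38 in myopic eyes.

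None of the members was called in the sclera after form deprivation. The log2 difference between myopic and control sclera was 0.42 (SE 0.59, 95% interval −0.92 to 1.76) for miR-1a-3p, 0.07 (SE 0.51, −1.08 to 1.22) for miR-133a-3p and 0.06 (SE 0.43, −0.91 to 1.03) for miR-133b-3p. It was 0.29 (SE 0.20, −0.16 to 0.75) for miR-133a-5p and 0.15 (SE 0.39, −0.73 to 1.04) for miR-206-3p. The adjusted p was 1 for each (limma), and the control and myopic pools overlapped for each member. The intervals leave room for a change of more than 2-fold in either direction for miR-133a-3p, and upward for miR-1a-3p, miR-133b-3p and miR-206-3p. In this comparison 0% of the miRNAs were called and 2.93% had an unadjusted p under 0.05. Leaving out control sclera 3 lowered the difference to 0.18 for both miR-1a-3p and miR-133a-5p and did not bring a call for any member.

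The members kept close proportions on the sclera arrays other than control sclera 3. The ratio of 2 members within an array does not depend on the scaling of that array, and its size reflects the probes, so only its change between arrays is read here. The log2 ratio of miR-133b-3p to miR-133a-3p lay between 0.981 and 1.096 on the 6 sclera arrays while the total gene signal of miR-133b-3p varied over a 3.06-fold range in the control sclera alone. That of miR-206-3p to miR-133a-3p lay between −2.99 and −2.49. The log2 ratio of miR-1a-3p to miR-133a-3p was −0.23 on control sclera 3, against a median of 0.83 and a highest value of 0.88 over the 6 sclera arrays. The log2 ratio of miR-133a-3p to its opposite arm miR-133a-5p was 5.14 on control sclera 3 and 4.34 to 4.52 on the other sclera arrays, so that miR-133a-5p was low there as well. Both probes of miR-1a-3p were low on that array, at 35.2 and 381.9, and their ratio of 0.092 was that of the other sclera arrays (0.093 to 0.098).

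In the sclera, the 5 miRNAs whose quantile-normalized log2 signals ran closest to the mean of the members were miR-338-3p (Pearson r = 0.829), miR-22-5p (0.814), miR-671-5p (0.813), miR-410-3p (0.809) and miR-466i-3p (0.799), over 6 arrays and 259 miRNAs compared. With 75th percentile scaling the closest was miR-34c-5p (Pearson r = 0.879). Of the 5 above, only miR-671-5p and miR-338-3p were then among the closest, so this list depends on the scaling. These correlations are descriptions across few arrays that share slides and depth.

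**Figure D2:**
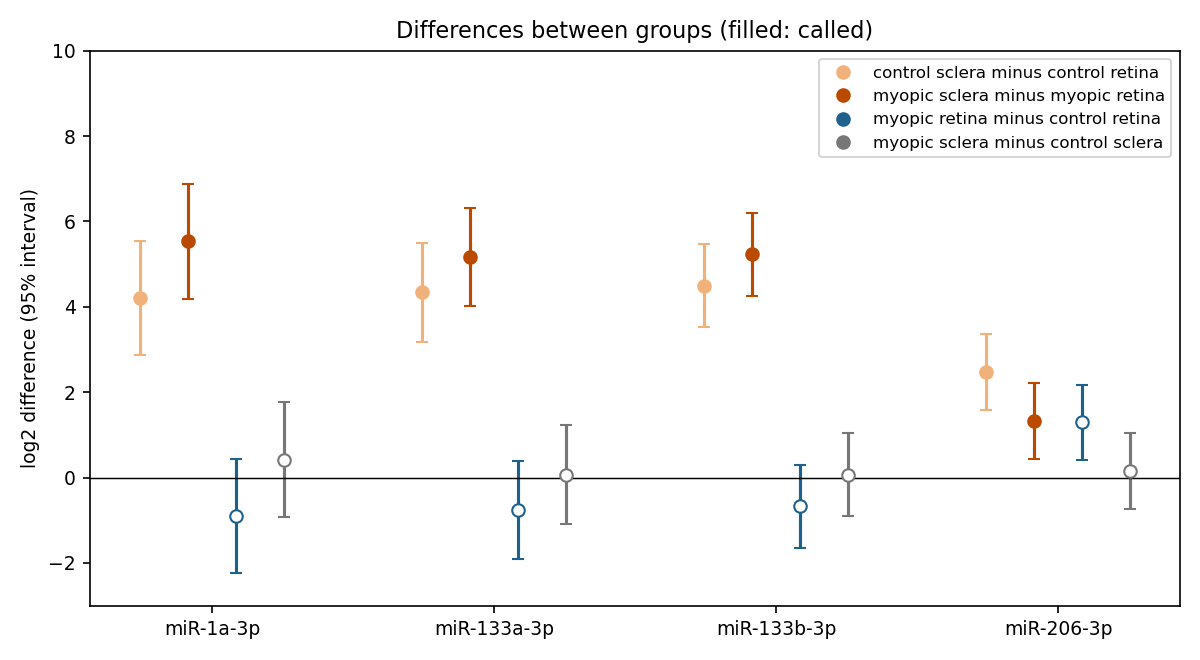
Log2 differences (y axis) of the 4 members detected on all 12 arrays in 4 comparisons, with 95% intervals from limma and filled symbols for calls. Both tissue differences are called for each member, from 1.33 to 5.53, while the retina change is below 0 for miR-1a-3p, miR-133a-3p and miR-133b-3p and 1.29 for miR-206-3p, and no change with form deprivation is filled.

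In the retina, form deprivation was compared between the myopic and control pools. miR-206-3p was higher on average in myopic retina, miR-1a-3p, miR-133a-3p and miR-133b-3p were lower on average, and miR-133a-5p was not detected in either group. None of these differences was called. The share called among all miRNAs was 0.226%.

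The quantile-normalized log2 signal of miR-206-3p was 5.95, 4.84 and 4.28 in the control retinas and 6.12, 6.72 and 6.11 in the myopic retinas. The groups did not overlap, and the myopic eye was higher in 3 of 3 pairs of same-numbered pools. Of all miRNAs, 5.19% had non-overlapping groups with higher myopic values and 11.3% were higher in 3 of 3 pairs. The log2 difference was 1.29 (SE 0.39, 95% interval 0.41 to 2.18, adjusted p = 0.13, limma). Its unadjusted p was under 0.05, as it was for 29.3% of the miRNAs. With 75th percentile scaling the difference was 1.96 (adjusted p = 0.21, limma), but the groups overlapped, with control retina 1 at 6.34 and myopic retina 3 at 6.29. They also overlapped in total gene signal. Leaving out control retina 1 raised the quantile-normalized difference to 1.79, which was called (adjusted p = 0.0016, limma). In that fit the number of called miRNAs rose from 1 to 122. Leaving out control retina 3, the array with the lowest signal, reduced the difference of miR-206-3p to 0.90 (adjusted p = 0.31, limma).

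For miR-1a-3p the log2 signal was 4.63, 6.47 and 7.10 in the control retinas and 5.23, 5.00 and 5.26 in the myopic retinas. The myopic arrays lay close together, between control retina 1 and the other control arrays. The log2 difference was −0.90 (SE 0.59, adjusted p = 0.35, limma). For miR-133a-3p the values were 4.08, 5.81 and 6.47 in control and 4.72, 4.47 and 4.89 in myopic retinas, with a difference of −0.76 (SE 0.51, adjusted p = 0.35, limma). For miR-133b-3p they were 5.50, 6.70 and 7.28 in control and 5.78, 5.72 and 5.97 in myopic retinas, with a difference of −0.67 (SE 0.43, adjusted p = 0.35, limma).

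The size of these negative differences depended on the scaling. Over the miRNAs that every retina array detected, the median change was −0.22 after quantile normalization and −0.02 with 75th percentile scaling, under which the differences of miR-1a-3p, miR-133a-3p and miR-133b-3p were −0.46, −0.28 and −0.31. With normexp, miR-133b-3p turned to 0.41. Without control retina 1 the 3 members were called lower in myopic retina, by −1.64, −1.47 and −1.19 (adjusted p = 0.014, 0.0035 and 0.018, limma), as the number of called miRNAs rose from 1 to 122. Without control retina 3 the differences were −0.38, −0.24 and −0.25 (adjusted p = 0.87, 0.93 and 0.89, limma). The size of the differences thus depended on both of these control pools.

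The change in the sclera minus that in the retina was 1.33 (SE 0.84) for miR-1a-3p, 0.83 (SE 0.72) for miR-133a-3p, 0.73 (SE 0.61) for miR-133b-3p and −1.14 (SE 0.56) for miR-206-3p, with adjusted p of 0.41, 0.51, 0.49 and 0.38 in limma. None was called, with 0.226% of all miRNAs called. Without control retina 1 it was called for miR-1a-3p (2.06, adjusted p = 0.026), miR-133a-3p (1.54, adjusted p = 0.016) and miR-206-3p (−1.63, adjusted p = 0.016), all by limma. In that fit the number of miRNAs called between myopic and control retina also rose, from 1 to 122. These calls are therefore not read as a result about the members. Over all miRNAs, the number called for the difference between the changes ranged from 0 to 112 with an array left out. Without control retina 3 the difference was 0.80, 0.31, 0.31 and −0.75 for the 4 members in the order above, and none was called.

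On the retina arrays miR-206-3p ran against the other members. Over the 6 arrays its log2 signal had a Pearson r of −0.92 with miR-1a-3p, −0.90 with miR-133a-3p and −0.92 with miR-133b-3p, whereas the other 3 members had r of at least 0.99 with each other. With 75th percentile scaling, r with miR-206-3p was −0.85, −0.82 and −0.85. In the sclera the same correlations were positive, from 0.78 to 0.86. The log2 ratio of miR-206-3p to miR-133a-3p ranged from −2.82 on control retina 3, a value within the range of the sclera arrays, to 2.04 on myopic retina 2. These are descriptions over arrays of shared slides.

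**Figure D3:**
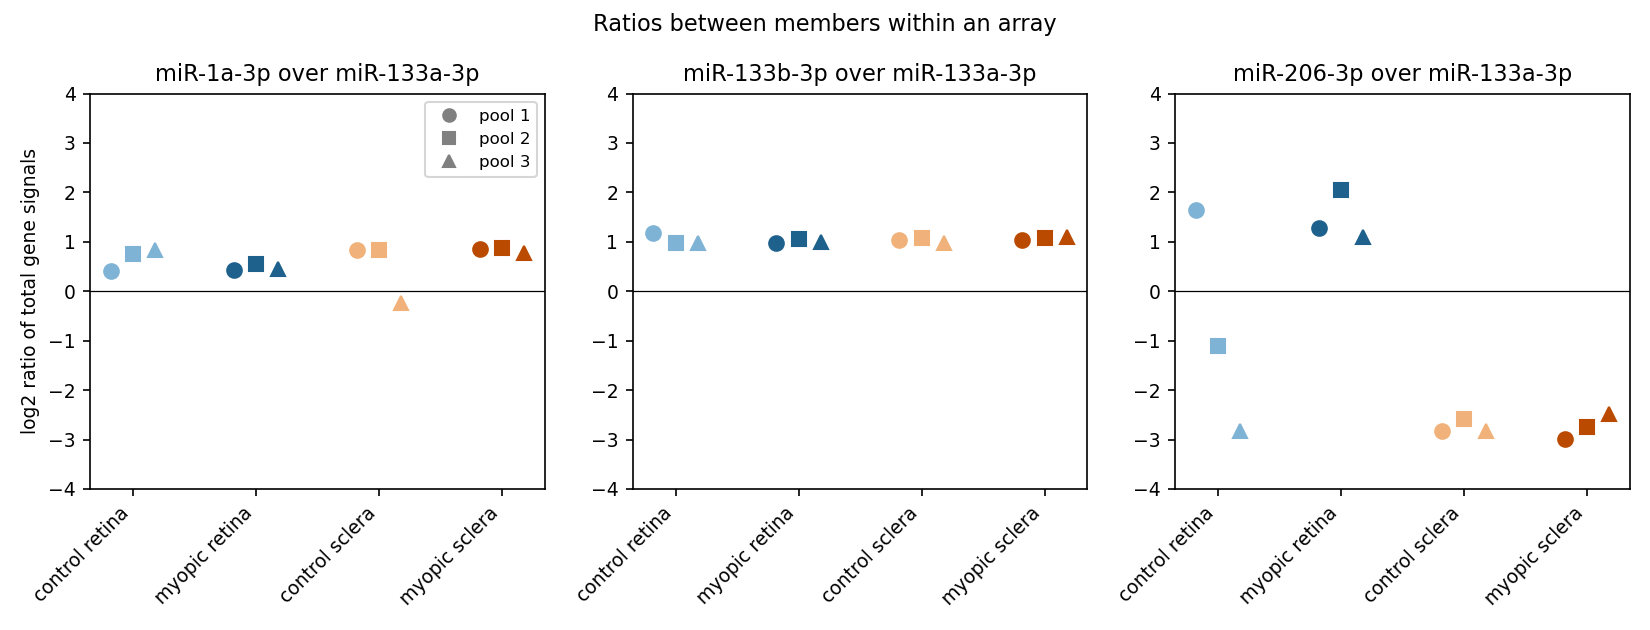
Log2 ratio of the total gene signals of 2 members within each array (y axis) by group, with a symbol for each pool. miR-133b-3p keeps its ratio to miR-133a-3p on all 12 arrays (0.98 to 1.18), miR-1a-3p falls to −0.23 on control sclera 3, and miR-206-3p spans −2.82 to 2.04 in the retina but −2.99 to −2.49 in the sclera. Whether the array tells miR-133b-3p from miR-133a-3p was not tested.

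The probes of miR-206-3p gave unequal accounts in the 2 tissues. The signal of the shorter probe over that of the longer was 0.330, 0.384 and 0.293 on the control sclera arrays, with 0.333, 0.379 and 0.338 on the myopic ones. In the myopic retina it was 0.837, 0.890 and 0.792, and in the control retina 0.829, 0.722 and 0.334. All retina arrays other than control retina 3 thus had a higher ratio than any sclera array, and control retina 3 lay within the range of the sclera. On control retina 3 none of the 10 spots of the shorter probe was well above background, and on control retina 2 only 3 were, against 10 on control retina 1 and on each myopic retina.

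For a comparison across miRNAs, the ratio was used only on arrays where at least 5 of 10 spots of both probes were well above background, a condition set after the values were seen. Over the 4 retina arrays and 6 sclera arrays that met it, the mean log2 ratio of miR-206-3p was 1.29 higher in retina than in sclera. Among 164 miRNAs with probes of unequal length and at least 3 such arrays in each tissue, 1 had a larger shift, and the median size was 0.054. For miR-133b-3p, with 5 retina arrays, the shift was 0.16. The shorter probes of miR-133a-3p and miR-1a-3p met the condition on 1 retina array each, so no shift is given for them. Unequal ratios show that the probes of miR-206-3p did not change alike between the tissues. Whether all retinal signal at these probes came from miR-206-3p was not tested.

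**Figure D4:**
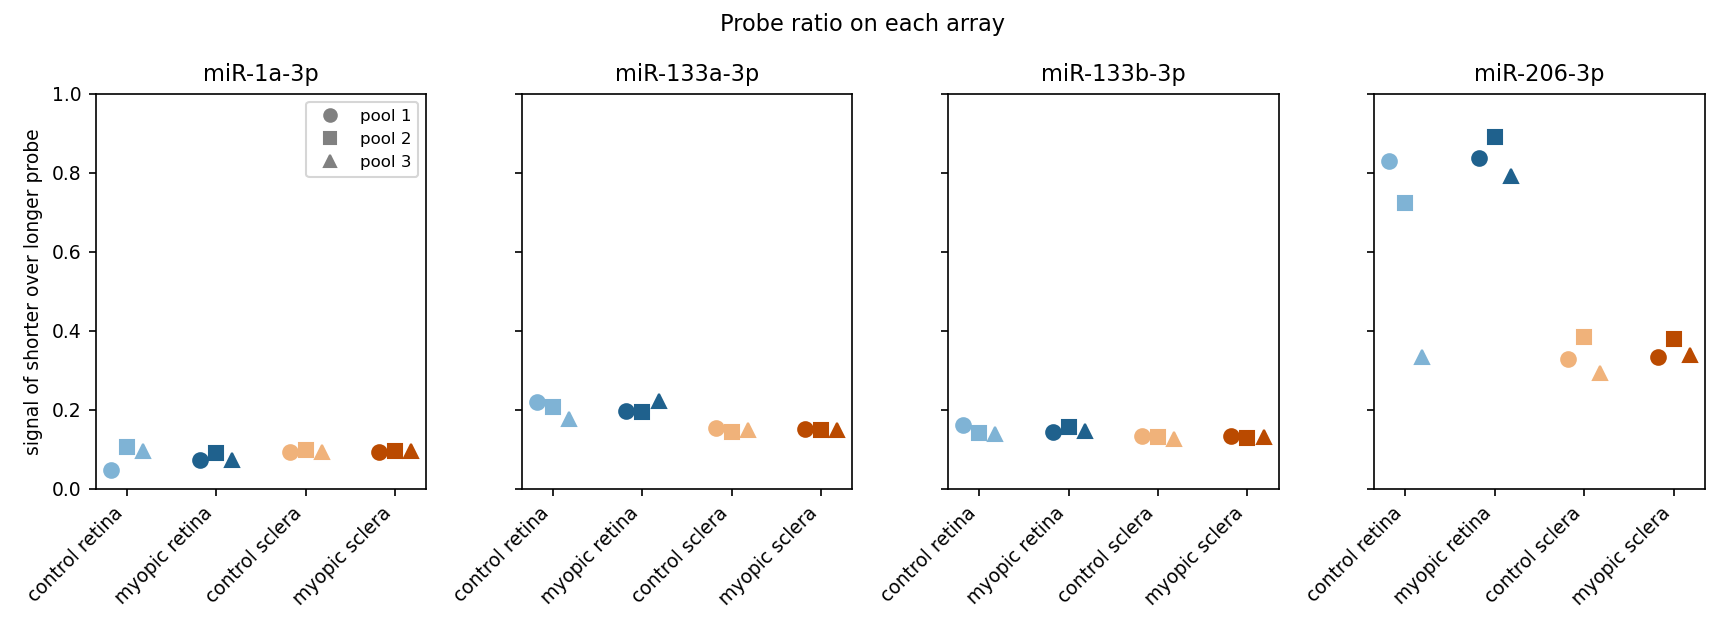
Signal of the shorter probe over that of the longer probe (y axis), each the mean of 10 spots, for 4 members on the 12 arrays by group. For miR-206-3p the ratio is 0.722 to 0.890 on all retina arrays other than control retina 3 (0.334) and 0.293 to 0.384 on the sclera arrays, while the other members stay below 0.23 throughout, with dim shorter probes in the retina.

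The miRNAs closest to miR-206-3p on the retina arrays were let-7d-3p (Pearson r = 0.988), miR-669a (version 15.0 entry, 0.985), miR-669l-5p (0.983), miR-672-5p (0.983) and miR-101a-5p (0.976). Of these, miR-669a, miR-669l-5p and miR-672-5p have the stretch CACACAC in their probes, as miR-206-3p does. The complementary GUGUGUG is in capitals in the RefSeq sequences below, all of miRNAs with CACACAC in a probe. Of those shown, miR-669n and miR-574-5p were not among the closest listed, and both carry more of the repeat outside the capitals.
mmu-miR-206-3p: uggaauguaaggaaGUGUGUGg
mmu-miR-672-5p: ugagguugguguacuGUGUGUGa
mmu-miR-669n: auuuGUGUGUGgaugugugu
mmu-miR-574-5p: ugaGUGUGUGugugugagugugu
A probe with CACACAC was held by 13 of the 696 miRNA names, or 1.87%, and one with GTGTGTG by 11. In RefSeq, 11 of 1738 mature entries, 0.633%, hold GUGUGUG.

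Of the 12 names other than miR-206-3p, 11 were tested. This set was chosen after the values were seen, so it has no test. All 11 had a log2 difference above 0 between myopic and control retina, from 0.26 to 3.44 with a median of 1.67, beside a median of −0.12 over all miRNAs tested, of which 34.3% were above 0. None was called by limma. An unadjusted p under 0.05 was found for 8, against 29.3% of all miRNAs. Groups that did not overlap, with higher myopic values, were found for 2, against 5.19%. These 2 were miR-669o-5p (3.44) and miR-466f-5p (3.41), which had the largest differences and were not detected on control retina 3. The smallest difference was that of miR-466b-5p, which was detected on 1 retina array, myopic retina 2, so its sign rests on that array. With 75th percentile scaling the lowest difference was 0.83 and the median 2.07. In the sclera 6 of the 11 were not detected on any array, and none of the others had a difference above 0. On control retina 1 the mean of the 8 of these that all retina arrays detected was 0.79 above its average over the retina arrays, and on the other control retinas it lay below that average. Of the 8, miR-672-5p was at 7.96 there and at 6.06 and 5.32 on the other control retinas, against 8.04, 8.34 and 7.74 on the myopic retinas. The mean of the 8 detected on all retina arrays thus moved with miR-206-3p between those arrays. The part of the miRNAs with this stretch in the result of miR-206-3p was not tested.

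The other 3 members moved with miRNAs of several kinds across the retina arrays, some of connective tissue and some not. miR-199a-3p, a miRNA of fibroblasts, was at 4.28, 5.57 and 7.24 in the control retinas and 4.34, 4.42 and 4.91 in the myopic retinas. All 3 connective tissue miRNAs detected in the retina (miR-199a-3p, miR-199a-5p and miR-143-3p) were lower on average in myopic retina, none was called, and miR-214-3p was detected on no retina array. The summed total gene signal of the list was 102.7, 127.4 and 361.5 in the control retinas and 105.7, 154.4 and 113.2 in the myopic retinas. Of the surface epithelium list (10.2 to 26.2 in the retina, 111.3 to 1243 in the sclera), miR-205-5p was detected on 1 retina array, control retina 3. The smooth muscle pair miR-143-3p and miR-145-5p summed to 53.6 to 136.6 in the retina and 178.5 to 595.6 in the sclera. miR-145-5p was detected on the 3 control retinas and on none of the myopic retinas, where it was set to −1. It was the 1 miRNA of all tested that was called between myopic and control retina. The pigment cell list summed to 18089 to 23878 in the retina and 3137 to 7153 in the sclera, the red blood cell list to 256.8 to 566.8 and 286.4 to 826.7, and the endothelium list to 1337 to 1770 and 1377 to 4005. miR-499-5p, which was not detected in the sclera, was at 5.15, 6.03 and 6.08 in the control retinas and 5.09, 5.06 and 5.32 in the myopic retinas, so control retina 1 again lay with the myopic arrays. With form deprivation the retinal log2 difference was −0.60 for miR-499-5p, −0.29 for miR-378-3p and −0.53 for miR-378-5p, none of them called. The part of other tissue in the retinal signal of the muscle miRNAs was not tested.

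The miRNAs closest to the mean of miR-1a-3p, miR-133a-3p and miR-133b-3p on the retina arrays were miR-19a-3p (Pearson r = 0.994), miR-148a-3p (0.993), miR-449a-5p (0.986), miR-31-5p (0.986) and miR-362-3p (0.981). Closest to the mean of all 4 members detected in the retina, in which miR-206-3p ran against the other 3, were miR-31-5p (Pearson r = 0.995), miR-184-3p (0.982), miR-19a-3p (0.980), miR-362-3p (0.979) and miR-20b-5p (0.969), over 322 miRNAs compared. miR-184-3p, abundant in the cornea and lens, was at 5.87, 10.24 and 11.80 in the control retinas and 8.83, 8.60 and 8.73 in the myopic retinas. With 75th percentile scaling none of the 5 closest to the mean of 4 members was among the closest, so that list depends on the scaling.

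**Figure D5:**
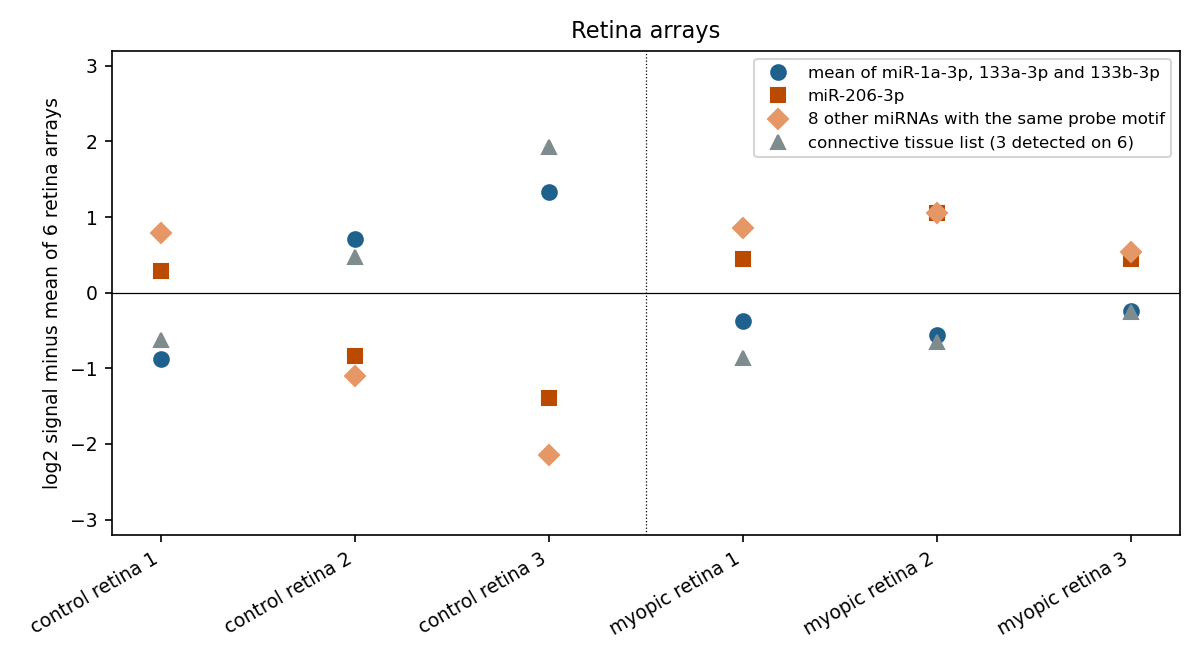
Quantile-normalized log2 signal minus the mean of the 6 retina arrays (y axis) for the mean of miR-1a-3p, miR-133a-3p and miR-133b-3p, for miR-206-3p, for the mean of the 8 other miRNAs with the CACACAC stretch detected on all retina arrays, and for the mean of 3 connective tissue miRNAs. Control retina 1 lies on the same side of the mean as the myopic retinas in all 4 series, but below all of them in the first series and for miR-206-3p. On control retina 3 the first series is at 1.34 and miR-206-3p at −1.39.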

How the data were processed

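Total RNA of 12 pools was labelled with Cy3 and hybridized to Agilent mouse miRNA arrays, 1 colour and 1 array per pool. Scanner files were deposited for every array, and their values are fluorescence intensities with the background subtracted and no normalization between arrays. The file headers name Feature Extraction 11.0.1.1 and mm9. The authors also deposited log2 values made with Partek 6.6, used here as an alternative, with a correlation of 0.999 with the values computed here over 437 miRNAs.

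A floor of 0.5 was put under the total gene signal before quantile normalization over 696 names and log2 transformation. The 443 miRNAs detected on at least 1 array were tested with limma 3.58.1 in R 4.3.3 in a single fit of 4 groups (8 residual degrees of freedom), two-sided, with Benjamini-Hochberg adjustment. The methods name an ANOVA, which was run as an alternative. No saturated spot was found among the members. The number of arrays limits the precision. Tables and figures were made with Python 3.11.15, pandas and matplotlib 3.10.9. The fit was tested on simulated data.

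The labels number the mice 1 to 3 with left and right eyes, whereas the methods describe pools of 3 eyes. Same-numbered pools were taken as pairs of fellow eyes on this basis. Their deviations from the group means correlated at 0.38, −0.46 and 0.59 in the retina and −0.14, −0.16 and −0.00 in the sclera. Pool number equals slide, and each group had 1 position on all 3 slides, so position and group cannot be told apart.

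The text names all members, the other striated-muscle list, and the 5 closest miRNAs in each tissue. The marker lists for pigment cells, red blood cells, endothelium and smooth muscle were also measured. The members and lists were chosen with earlier results of these data known.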

Additional observations from a re-analysis of the deposited data

How the results depend on the processing

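Alternatives to the scaling, the filter, the floor, the background correction, the probe summary, the spread and the samples in the fit were run for every member in each comparison, with each array left out in turn, and the fit without control retina 1 and control sclera 3 was added after seeing the data. Over 680 member results, 642 kept their direction and side of the threshold, 21 gained a call, 6 lost one and 11 changed sign. Those kept include 27 of miR-133a-5p between the retina groups, where the main difference was 0 and had no direction. The causes were not tested.

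The sign of miR-206-3p in myopic sclera minus myopic retina turned to −0.40 (quantile normalization within each tissue), −0.74 (no normalization) and −0.37 (normexp), and that of miR-133b-3p with normexp turned to 0.41 in the retina and −0.27 in the sclera minus retina change. With an array left out, the sclera change ranged from −0.084 to 0.25 for miR-133a-3p, −0.15 to 0.36 for miR-133b-3p and −0.024 to 0.32 for miR-206-3p.

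The number of called miRNAs in the retina was 1, became 0 with normexp, with processed spot signals, with the filter on all 12 arrays, with a floor raised to the lowest signal detected, and with only the groups compared, 2 with the authors' values, 146 with array weights (an estimate that did not converge) and 137 without both arrays. With an array left out it ranged from 1 to 122, the highest without control retina 1, and was 13 without myopic retina 3. In the sclera it was 0, became 1 with array weights and without both arrays, and ranged from 0 to 1 with an array left out. The number called for the difference between the changes was 1, became 0 with the authors' values, normexp, processed spot signals, the filter on all 12 arrays and the raised floor, 156 with array weights and 123 without both arrays, and ranged from 0 to 112 with an array left out. Between the tissues, normexp gave 65 calls in control eyes and 95 in myopic eyes, and the filter on all 12 arrays gave 128 and 139, against 224 and 261.

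With fellow eyes paired by a replicate block within each tissue, the number called was 2 in the retina and 0 for the difference between the changes, where the replicate block over all 12 arrays also gave 0. Neither block changed the call of any member. The dim signals of the members in the retina, where several shorter probes were not well above background, and 3 arrays a group limit what can be detected.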
